A study of Mus musculus with 24 samples.

Results

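Rbm3 and Cirbp encode the cold-inducible RNA-binding proteins, and their RNA was followed in the liver of 24 mice. The members were all array probes whose gene name was exactly Rbm3 or Cirbp, which gave 4 probes of Rbm3 and 3 of Cirbp, that is 7 of 56605 probes and 2 of 37074 gene names on the array. All 7 were well above background on every array and all were tested. Each mouse was measured on 1 Agilent array in 1 colour (Cy3). The mice were C57Bl6J males of the third generation of breeding, and their age is not given in the labels. The reference group (label STD_Cont, 9 mice) and the HFoleic group (HFD_Cont, 8 mice) came from the control lineage, whose breeding diet was supplemented with high-oleic sunflower oil. The HFepa group (HFD_O3, 7 mice) came from a lineage that had been given fish oil, a source of eicosapentaenoic acid (EPA), over the generations. HFoleic and HFepa mice received a high-fat, high-sucrose diet, while reference mice received a low-fat diet, and all were killed while fasting. EPA-lineage mice on the low-fat diet were not analysed here, so in HFepa against reference the diet and the lineage cannot be told apart.

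Both proteins are small and glycine-rich, carry a single RNA-recognition motif, and are known for a rise of their RNA when cells are cooled mildly. They bind messenger RNAs and affect their stability, their translation and the choice of polyadenylation site. In mouse liver the RNA of Cirbp is known to follow the daily rhythm of body temperature, with heat-shock genes in the opposite phase. Cirbp protein released from stressed cells is also known as an inflammatory signal. Body temperature was not analysed here, and the labels give no hour of death.

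The probes are 60-base oligonucleotides, placed on mouse build mm9 by the scanner files and numbered here within a gene by mean signal. Rbm3 lies on chromosome X, minus strand. Its probe 1 (A_51_P262340) covers 7719656 to 7719715, probe 2 (A_55_P2117525) 7720785 to 7720844, and probe 3 (A_55_P2901762) 7720998 to 7721057. These 3 are assigned by the array design to the same 4 RefSeq transcripts. Probe 4 (A_55_P2766239), at 7716198 to 7716257, is assigned to NM_016809, which is not among those 4, and lies 4800 bases downstream of probe 3, against 1342 bases for probe 1 and 213 for probe 2. Cirbp lies on chromosome 10, plus strand. Its probe 1 (A_55_P2813676) covers 79634233 to 79634292, probe 2 (A_55_P1985001) 79635422 to 79635481, and probe 3 (A_55_P2506450) is placed over 79632817 to 79632955, a span of 139 bases for its 60 bases. Probe 2 of Cirbp is assigned to the Ensembl transcript ENSMUST00000054666, and the other 2 to NM_007705. RefSeq for GRCm38.p6 lists 5 transcripts of Rbm3 and 8 of Cirbp, and a pseudogene, Rbm3-ps, on chromosome 1. Binding of pseudogene RNA to the Rbm3 probes was not tested. The sequences of the Rbm3 probe with the smallest p-value of all probes tested, of its neighbour and of the upstream Cirbp probe are shown 5′ to 3′ to say what was hybridised, without capitals because no part of them was singled out.
Rbm3 probe 3: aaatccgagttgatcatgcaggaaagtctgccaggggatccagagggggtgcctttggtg
Rbm3 probe 2: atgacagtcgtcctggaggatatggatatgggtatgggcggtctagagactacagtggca
Cirbp probe 3: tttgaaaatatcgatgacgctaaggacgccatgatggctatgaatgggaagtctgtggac

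Per array 28804 to 34432 probes were well above background, no spot was saturated, and array medians lay between 59.5 and 89.0 signal units. All 6 hepatocyte markers (such as Alb and Apoa1) were well above background on every array, and their summed level (log2 of the sum) was 19.996 to 20.11 in the reference, 20.06 to 20.14 in HFoleic and 20.07 to 20.13 in HFepa. Their 1 called gene was Cps1, lower in HFoleic, and it returns below. Of 4 bile duct markers Sox9 was lower in HFoleic, and the summed level of the list ran from 8.36 to 10.12 in the reference, from 8.36 to 8.75 in HFoleic and from 8.46 to 8.79 in HFepa. Of 4 stellate cell markers Lrat was higher in HFoleic, and the list ran from 11.85 to 12.88, from 12.20 to 12.68 and from 12.32 to 12.67 in the same order of groups. Lists of 4 skeletal muscle, 4 blood, 4 adipocyte, 5 exocrine pancreas, 4 Kupffer cell and 4 endothelial markers had no gene called in the 3 pairwise comparisons. The summed level of the muscle list ran from 7.32 to 10.96 in the reference, from 7.79 to 7.997 in HFoleic and from 7.80 to 8.16 in HFepa. That of the adipocyte list varied widely in every group, from 8.48 to 12.64, from 8.78 to 13.44 and from 8.67 to 12.50 in the same order. The part of these cell types in the results on Rbm3 and Cirbp was not tested.

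The comparison of HFoleic with reference asked how the obesogenic diet changed expression within 1 lineage. Rbm3 RNA fell. In log2 signal, the scale of all levels given here, probe 1 ran from 11.67 through a median of 11.98 to 12.27 in the reference and from 11.02 through 11.24 to 11.45 in HFoleic. Every HFoleic mouse lay below every reference mouse. The means were 12.004 ± 0.20 (SD, n = 9) in the reference and 11.23 ± 0.15 (SD, n = 8) in HFoleic mice, a log2 fold change of -0.77 (SE 0.0987, 95% interval -0.98 to -0.57, adjusted p = 0.000247, limma), which is 58.5% of the reference level.

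Rbm3 probes 2 and 3, upstream on the same transcripts, gave the same picture. Probe 3 ran from 9.64 through 9.94 to 10.12 in the reference and from 8.87 through 9.03 to 9.35 in HFoleic, again without overlap. Its log2 fold change of -0.84 (SE 0.0852, adjusted p = 1.76e-05) had rank 1 by p-value among the 30003 probes tested. Probe 2 changed by -0.82 (SE 0.107, adjusted p = 0.000253), also without overlap, and had rank 6, next to rank 5 of probe 1. Permuting the group labels exactly, two-sided and for a single probe, gave p = 4.11e-05 for each of the 3, the smallest p that 24310 splits can give. Probes of a gene share their RNA, so the 3 are no replicates of each other.

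Rbm3 probe 4, the distal probe, did not fall. It ran from 7.06 through 7.50 to 7.99 in the reference and from 7.28 through 7.67 to 8.31 in HFoleic, and the groups overlapped. The log2 fold change was 0.35 (SE 0.140, 95% interval 0.057 to 0.64, adjusted p = 0.144), which did not pass the threshold of 0.05.

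Cirbp RNA fell as well in HFoleic. Probe 1 ran from 10.60 through 11.61 to 12.11 in the reference and from 10.34 through 10.73 to 10.995 in HFoleic. All 8 HFoleic mice were below the reference mean, but only 3 lay below every reference mouse, because reference replicate 8 had the low value of 10.60. The means were 11.53 ± 0.43 (SD, n = 9) and 10.69 ± 0.22 (SD, n = 8), a log2 fold change of -0.84 (SE 0.149, 95% interval -1.14 to -0.53, adjusted p = 0.00179), or 55.9% of the reference level. Without reference replicate 8, which was also the lowest reference mouse in Rbm3 probes 1 and 2, the Cirbp change was -0.95 (adjusted p = 5.1e-05).

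The 2 dim Cirbp probes moved less. Probe 3 had a mean of 7.17 ± 0.22 (SD, n = 9) in reference mice and 6.67 ± 0.21 (SD, n = 8) in HFoleic mice, a change of -0.51 (SE 0.0996, adjusted p = 0.0035). Probe 2, with means of 7.02 ± 0.079 (SD, n = 9) and 6.84 ± 0.11 (SD, n = 8), was lower by a log2 change of -0.18 (SE 0.0572, adjusted p = 0.0605) and did not pass. These signals hold an unsubtracted background, which can compress changes of dim probes. With the background-subtracted processed signal the change of probe 3 was -0.73 (adjusted p = 0.00645) and that of probe 2 was -0.27 (adjusted p = 0.0644), which did not pass. Probe 1 changed by -0.81 in that setting. Why the dim probes moved less was not tested.

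In all, 5 of the 7 member probes were called lower in HFoleic, where 3.19% of all probes tested were called lower and 7.23% in either direction. In 3 of the 7 the 2 groups did not overlap, against 0.257% of all probes with HFoleic entirely below the reference. The Rbm3 and Cirbp calls by the brightest probe held in all 24 fits that left out 1 array. Within each of the 3 slides, where no test was made on the 2 or 3 arrays per group, the direction was the same and the difference of probe 1 was -0.98, -0.70 and -0.64 for Rbm3 and -1.22, -0.72 and -0.52 for Cirbp. A smaller amount of RNA per cell cannot be told apart in whole liver from a smaller share of the cells that hold it.

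**Figure D1:**
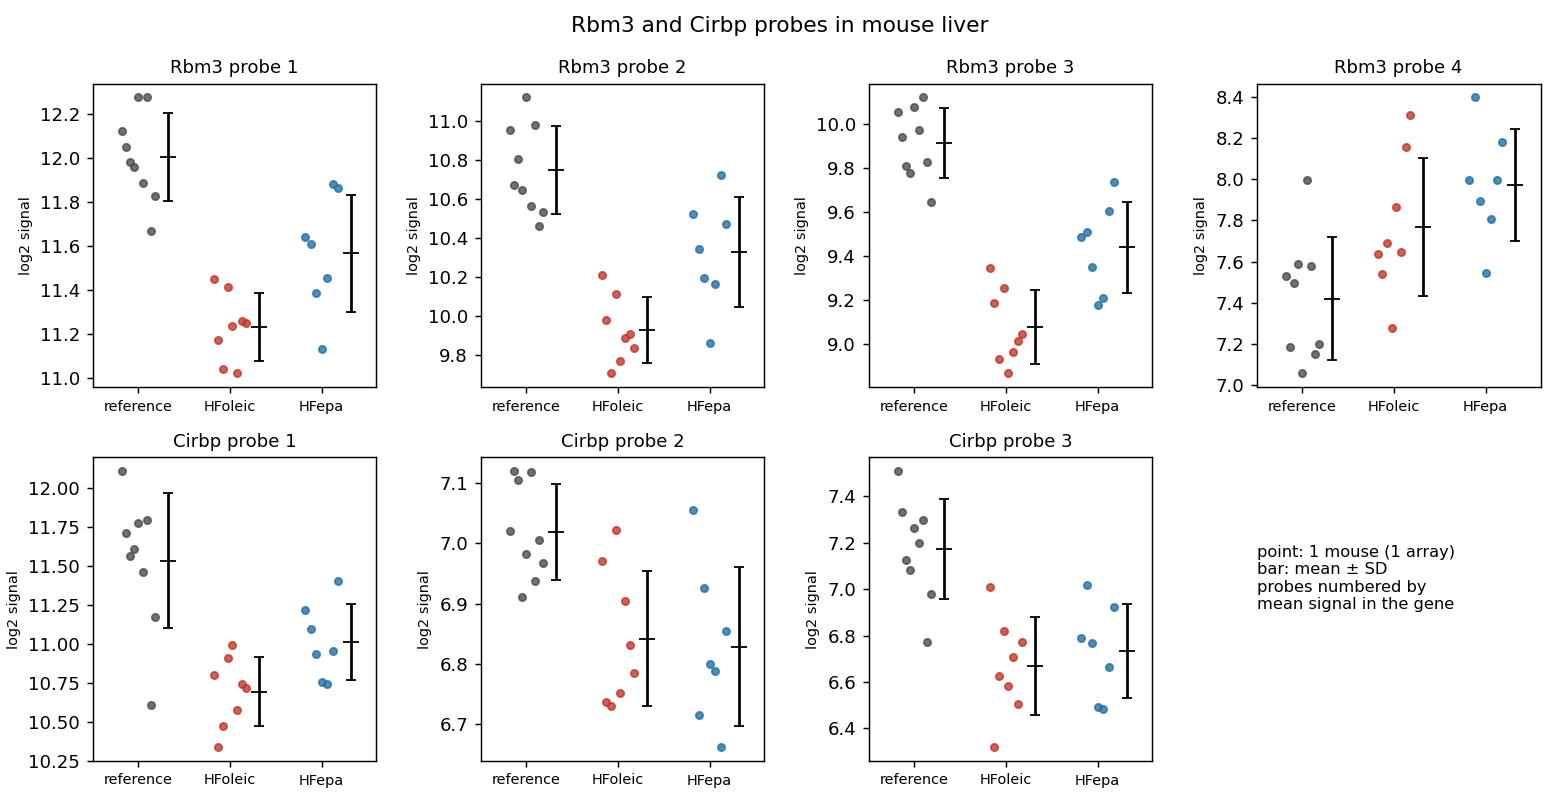
Log2 signal of the 4 Rbm3 probes (upper row) and the 3 Cirbp probes (lower row) on the vertical axes, by group on the horizontal axes; each point is 1 mouse and bars are mean ± SD. In Rbm3 probes 1 to 3 all 8 HFoleic mice sit below all 9 reference mice, whereas probe 4 overlaps and has higher means in both high-fat groups.

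The comparison of HFepa with reference crossed both the diet and the lineage. Rbm3 probe 3 fell. It ran from 9.18 through 9.49 to 9.74 in HFepa, 6 of 7 mice lay below every reference mouse, and the log2 fold change was -0.47 (SE 0.0884, 95% interval -0.66 to -0.29, adjusted p = 0.0245). It had rank 17 by p-value among all probes. The call was lost without a filter on dim probes (adjusted p = 0.0509), with the methods' t-test, the test that the study names (0.167) and in 5 of 24 fits that left out 1 array, those without HFepa replicate 1 (0.0582), 2 (0.0586) or 6 (0.0508) or reference replicate 1 (0.0504) or 2 (0.0509). The exact permutation test of this probe alone gave p = 0.000175.

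The other member probes did not pass in this comparison. Rbm3 probe 1 ran from 11.13 through 11.61 to 11.88, with 7 of 7 HFepa mice below the reference mean, and differed by -0.44 (SE 0.102, 95% interval -0.65 to -0.23, adjusted p = 0.0543). Probe 2 differed by -0.42 (SE 0.111, adjusted p = 0.0797). Cirbp probe 1 ran from 10.74 through 10.95 to 11.41, overlapped with the reference, and differed by -0.52 (SE 0.154, 95% interval -0.84 to -0.20, adjusted p = 0.118). Cirbp probe 3 differed by -0.44 (adjusted p = 0.0543) and probe 2 by -0.19 (adjusted p = 0.136). The distal Rbm3 probe 4 ran from 7.54 through 7.99 to 8.40 in HFepa and missed the threshold, with a difference in means of 0.55 (SE 0.146, 95% interval 0.25 to 0.85, adjusted p = 0.0798), with 7 of 7 mice above the reference mean.

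Leaving out 1 reference mouse moved both brightest probes past the threshold. Without reference replicate 8 the difference was -0.48 (adjusted p = 0.0167) for Rbm3 probe 1 and -0.63 (adjusted p = 0.0117) for Cirbp probe 1. None of the other fits that left out 1 of the 24 arrays called either probe. Over all these fits the difference ran from -0.490 to -0.366 for Rbm3 and from -0.634 to -0.447 for Cirbp. In this comparison 1 of 7 member probes was called, where 0.203% of all probes were called lower and 0.393% in either direction. Within the 3 slides the difference of Rbm3 probe 1 was -0.57, -0.38 and -0.37, and that of Cirbp probe 1 was -0.81, -0.56 and -0.18.

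The comparison of HFepa with HFoleic set the lineages side by side on the same diet. Without EPA-lineage mice on the low-fat diet, an altered response cannot be told apart from a lineage difference present before the diet. Rbm3 probes 1 to 3 had higher means in HFepa, by 0.33 (SE 0.105, 95% interval 0.12 to 0.55, adjusted p = 0.278), 0.40 (SE 0.114, adjusted p = 0.231) and 0.36 (SE 0.0908, 95% interval 0.17 to 0.55, adjusted p = 0.184). None passed. All 7 HFepa mice lay above the HFoleic mean in probe 3, 5 of them above every HFoleic mouse. Cirbp probe 1 differed by 0.32 (SE 0.158, 95% interval -0.0070 to 0.65, adjusted p = 0.524), with 7 of 7 HFepa mice above the HFoleic mean. For Cirbp probes 2 and 3 the differences were -0.013 (95% interval -0.14 to 0.11) and 0.066 (95% interval -0.15 to 0.28). Limma called 0 of 30003 probes in this comparison (0%), with 2910 at an unadjusted p under 0.05, and the methods' t-test called 0, with 3266. The exact permutation test of a single probe, not adjusted for the number of probes, gave p = 0.00932 for Rbm3 probe 1, 0.00389 for its probe 3 and 0.0197 for Cirbp probe 1.

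The order of the mean levels was therefore HFoleic, HFepa, reference in Rbm3 probes 1 to 3 and in Cirbp probes 1 and 3. The step from HFoleic to HFepa did not pass the test across all probes in any of them, and the step from HFepa to reference passed in Rbm3 probe 3 only. Both comparisons against the reference use the same 9 reference arrays.

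**Figure D2:**
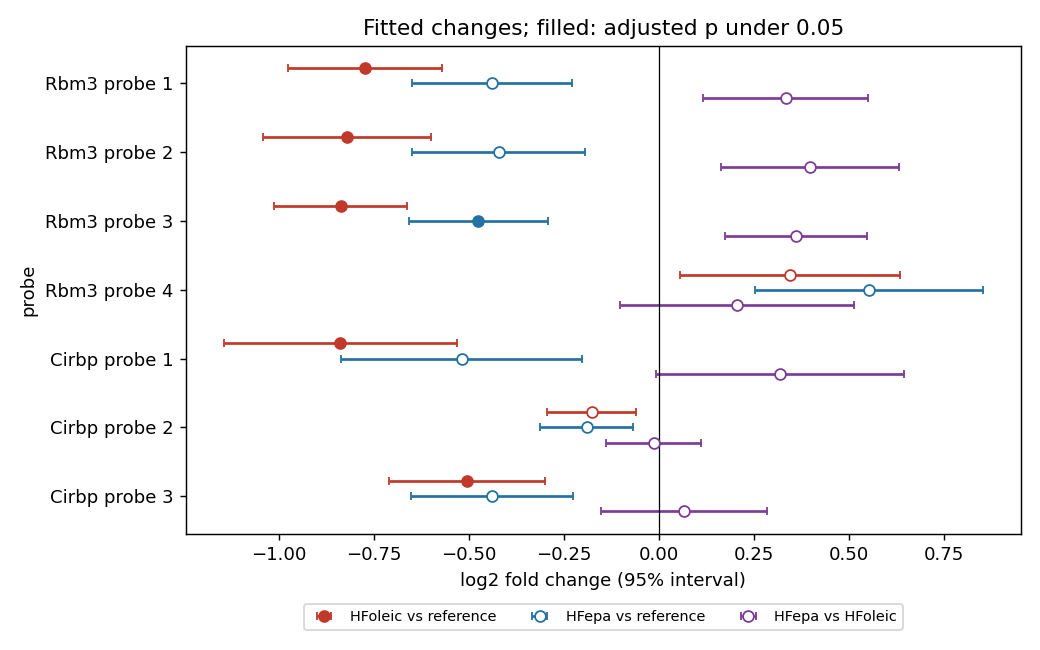
Log2 fold change (horizontal axis) with its 95% interval for each member probe (vertical axis) in the 3 pairwise comparisons; filled points have an adjusted p under 0.05. Against the reference, HFoleic changes of Rbm3 probes 1 to 3 lie between -0.84 and -0.77 and those of HFepa between -0.47 and -0.42, and Rbm3 probe 4 is the only probe with positive values in both.

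With the 2 high-fat groups averaged against the reference, Rbm3 fell by 0.61 on the log2 scale in probe 1 (adjusted p = 0.00066), by 0.62 in probe 2 (adjusted p = 0.00101) and by 0.66 in probe 3 (adjusted p = 0.000128). Probe 3 again had rank 1 among all probes. Cirbp fell by 0.68 in probe 1 (adjusted p = 0.00418), by 0.18 in probe 2 (adjusted p = 0.0281) and by 0.47 in probe 3 (adjusted p = 0.00356). The distal Rbm3 probe 4 rose by 0.45 (SE 0.122, adjusted p = 0.028), with 14 of 15 high-fat mice above the reference mean. Thus 6 of 7 member probes were called lower and 1 higher, where 2.91% of all probes were called lower and 3.19% higher. The call of Rbm3 probe 4 was lost without a filter on dim probes (adjusted p = 0.0547), with the replicate number as a block (0.0645) and without reference replicate 2 (0.0567), 5 (0.0604) or 9 (0.053). That of Cirbp probe 2 was lost with median centring (0.0651), without a filter (0.0681), with the replicate block (0.0616) and without reference replicate 1 (0.0505), 2 (0.0577), 3 (0.0561) or 6 (0.0531).

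The means of the distal and the brightest probe of Rbm3 differed in direction. Which RNA the distal probe reads, such as a transcript with another 3′ end, was not settled here. The log2 signal of probe 4 minus that of probe 1 was -4.58 ± 0.36 (SD, n = 9) in reference mice, -3.47 ± 0.38 (SD, n = 8) in HFoleic mice and -3.59 ± 0.21 (SD, n = 7) in HFepa. It ran from -5.22 to -3.89 in the reference, from -4.13 to -2.94 in HFoleic and from -3.89 to -3.21 in HFepa. The group means differed by 1.12 between HFoleic and reference, by 0.99 between HFepa and reference and by -0.13 between HFepa and HFoleic. This difference was chosen after the values of the probes were seen and is a description with no test. Under 4 other settings it was 1.08 to 1.15 for HFoleic and 0.90 to 1.05 for HFepa against the reference. The level of a probe depends on its own binding, so the minus sign says nothing of which transcript was more abundant.

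**Figure D3:**
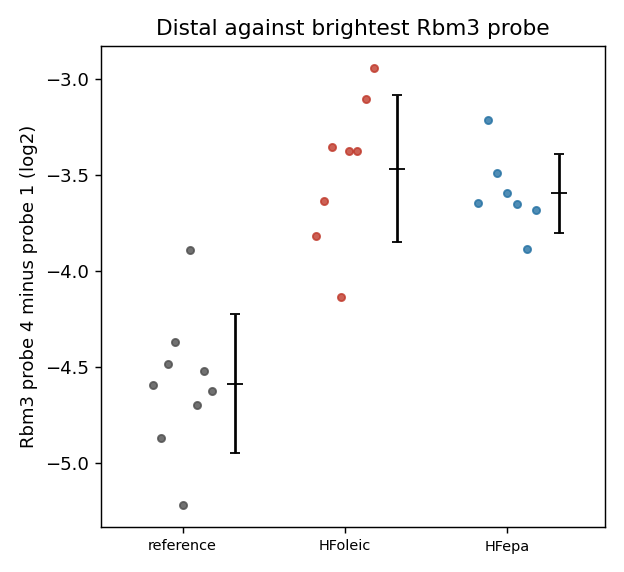
Log2 signal of Rbm3 probe 4 minus that of Rbm3 probe 1 (vertical axis) by group (horizontal axis); points are mice and bars are mean ± SD. The reference mice centre on -4.58, the HFoleic mice on -3.47 and the HFepa mice on -3.59.

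Rbm3 and Cirbp moved together from mouse to mouse. Over the 24 mice their brightest probes correlated with Pearson's r = 0.893 and Spearman's rho = 0.875, each with a permutation p = 1e-05, the smallest that 100000 permutations can give, and 0.00011 after Benjamini-Hochberg adjustment over 11 relations. Without the 2 mice farthest from the median of Rbm3, r was 0.866. These permutations exchanged mice across the groups, and the groups differ in both genes, so the group differences enter the p-values. After subtraction of the group means r was 0.720, for which no test was made. Within the reference r was 0.851 (exact permutation p = 0.00287, n = 9), within HFoleic 0.649 (exact p = 0.0838, n = 8) and within HFepa 0.704 (exact p = 0.0714, n = 7). Adjusted over the groups, these exact p-values were 0.00861, 0.0838 and 0.0838 in the same order. Within the 3 slides r was 0.947, 0.882 and 0.851.

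**Figure D4:**
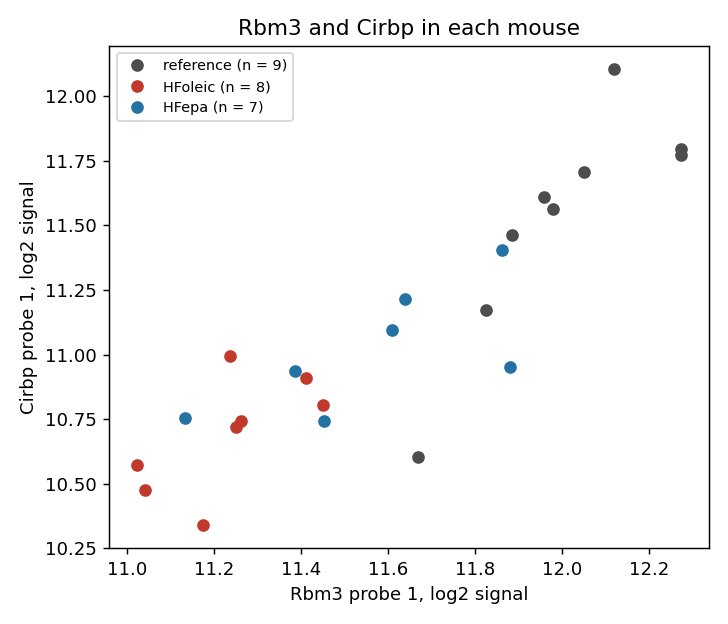
Log2 signal of Cirbp probe 1 (vertical axis) against that of Rbm3 probe 1 (horizontal axis), 1 point per mouse, coloured by group. The HFoleic mice fill the lower left, the reference mice the upper right apart from replicate 8 with a Cirbp value of 10.60, and r over all 24 mice is 0.893.

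Among 19220 genes read from their brightest probe over the 24 arrays, Cirbp had rank 3 in correlation with Rbm3, and Rbm3 had rank 1 with Cirbp. The group differences enter these ranks. The genes most like Rbm3 were Asl (r = 0.905), which encodes argininosuccinate lyase of the urea cycle, Cps1 (0.897), the enzyme of its entry step, Cirbp, E030018B13Rik (0.861) and Mat1a (0.859), the methionine adenosyltransferase of liver. After subtraction of group means these correlations were 0.704 for Asl, 0.730 for Cps1, 0.720 for Cirbp, 0.591 for E030018B13Rik and 0.589 for Mat1a. Among the lowest were 1810058I24Rik (-0.911) and Fkbp4 (-0.902), a co-chaperone of Hsp90. For Cirbp those among the highest after Rbm3 were the transcript ENSMUST00000150411 (0.892), Pptc7 (0.872), a mitochondrial phosphatase, and Asl (0.866). After subtraction of group means r with Cirbp was 0.788 for ENSMUST00000150411, above the 0.720 of Rbm3, 0.709 for Pptc7 and 0.661 for Asl. The lowest were Fkbp4 (-0.889), Akr1c6 (-0.871) and Sord (-0.863), sorbitol dehydrogenase. All of these genes except Rbm3 and Cirbp themselves are named here for their likeness on the same arrays, so their own group differences are no separate evidence. Asl, for instance, changed by -1.10 in HFoleic (adjusted p = 0.000683) and Cps1 by -0.89 (adjusted p = 0.00166). Cps1 is also in the list of hepatocyte markers, and Fkbp4 in that of heat-shock factor targets.

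Of the list of known regulators of the 2 genes, such as the transcription factor Sp1, the splicing factor Hnrnph1 and the Clk kinases, 9 of 10 were tested and 0 were called by limma in the 3 pairwise comparisons. At an unadjusted p under 0.05 there were 0, 3 and 2 in HFoleic against reference, HFepa against reference and HFepa against HFoleic. The largest differences were those of Ntrk2 (-0.37, adjusted p = 0.598, and -0.82, adjusted p = 0.304, against the reference) and of Trpv4, a warmth-gated channel (-0.17, adjusted p = 0.280, in HFoleic). In HFepa the next was Clk4 (0.17, adjusted p = 0.256), and against HFoleic they were Ntrk2 (-0.45, adjusted p = 0.721) and Clk1 (0.23, adjusted p = 0.193). The median change of the list was -0.064 in HFoleic, against -0.00072 over all probes.

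Of 9 RNAs and receptors that the 2 proteins are known to act on, 8 were tested. In HFoleic 2 rose and none fell, beside 4.05% of all probes called higher and 3.19% lower: Txn1 (0.29, adjusted p = 0.00546), which encodes thioredoxin, and Ly96 (0.49, adjusted p = 0.0149), the partner of the Toll-like receptor Tlr4. Tlr4 itself differed by -0.034 (adjusted p = 0.854). The median change of the list in HFoleic was 0.036. In HFepa none was called (2 at an unadjusted p under 0.05), and the largest differences there were those of Ly96 (0.26, adjusted p = 0.377) and Atr (-0.17, adjusted p = 0.340). Between the high-fat groups none was called (0 at an unadjusted p under 0.05), with Ly96 at -0.23 (adjusted p = 0.588) and Rpa2 at -0.16 (adjusted p = 0.545).

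The cold-shock domain proteins, a different family whose name also refers to cold, had no member called lower. Of 7 tested, Carhsp1 rose in HFoleic (0.22, adjusted p = 0.0169) and none fell, beside 4.05% of all probes called higher and 3.19% lower. The median change of the list was 0.031. In HFepa none was called (0 at an unadjusted p under 0.05), and the largest differences were those of Lin28b (-0.15, adjusted p = 0.917) and Ybx3 (-0.051, adjusted p = 0.865). Between the high-fat groups none was called (1 at an unadjusted p under 0.05), with Ybx2 at 0.29 (adjusted p = 0.788) and Carhsp1 at -0.27 (adjusted p = 0.118).

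Among other proteins with RNA-recognition motifs, 22 of 23 were tested. In HFoleic 4 fell and 1 rose, beside 3.19% of all probes called lower and 4.05% higher. The falls were those of Rbmx (-0.56, adjusted p = 0.00758), a glycine-rich splicing protein, Hnrnpdl (-0.35, adjusted p = 0.00802), Hnrnpd (-0.29, adjusted p = 0.0249), which binds AU-rich elements, and Ewsr1 (-0.20, adjusted p = 0.0386). Hnrnpa3 rose (0.23, adjusted p = 0.0275). The 5 calls in HFoleic became 3 without HFoleic replicate 2 or 3 or reference replicate 1 or 7, and 8 without reference replicate 8. In HFepa only Rbmx was called (-0.57, adjusted p = 0.0499), and that call was lost in 8 of 10 other settings and in 20 of the 24 fits that left out 1 array. None was called between the high-fat groups (3 at an unadjusted p under 0.05), where Hnrnpdl (0.26, adjusted p = 0.286) and Hnrnpd (0.16, adjusted p = 0.541) differed most. The median change of the list was -0.074 in HFoleic and -0.041 in HFepa, against -0.00072 and 0.0047 over all probes.

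Of the targets of heat-shock factor, which encode chaperones and their partners, all 20 were tested, and 9 rose in HFoleic and none fell, beside 4.05% of all probes called higher. The median change was 0.29. The 6 with the smallest p were Fkbp4 (0.55, adjusted p = 0.000171), Hspa4l (0.43, adjusted p = 0.00183), an Hsp110 chaperone, Ahsa1 (0.32, adjusted p = 0.00274), which activates the ATPase of Hsp90, Dnaja1 (0.44, adjusted p = 0.00463), Chordc1 (0.37, adjusted p = 0.00579) and Cacybp (0.40, adjusted p = 0.00859). In HFepa 4 rose, beside 0.19% of all probes called higher: Dnajb1 (0.74, adjusted p = 0.0245), a co-chaperone of Hsp70, Hspb1 (0.82, adjusted p = 0.0282), the small heat-shock protein Hsp27, Hsph1 (0.71, adjusted p = 0.0282) and Dnaja1 (0.46, adjusted p = 0.0282). The HFepa count was 0 without a filter on dim probes and with the methods' t-test, 2 with the processed signal and 7 when the slide row was a block. It was 0 to 10 over the fits that left out 1 array, with 16 of 20 at an unadjusted p under 0.05 on all arrays. The inducible Hsp70 gene Hspa1b differed by 0.27 (adjusted p = 0.722) in HFoleic and by 1.07 (adjusted p = 0.164) in HFepa. Between the high-fat groups none was called (6 at an unadjusted p under 0.05), with Hspa1a at 1.28 (adjusted p = 0.212) and Hspa1b at 0.80 (adjusted p = 0.486). The median change was 0.34 in HFepa, against 0.0047 over all probes.

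**Figure D5:**
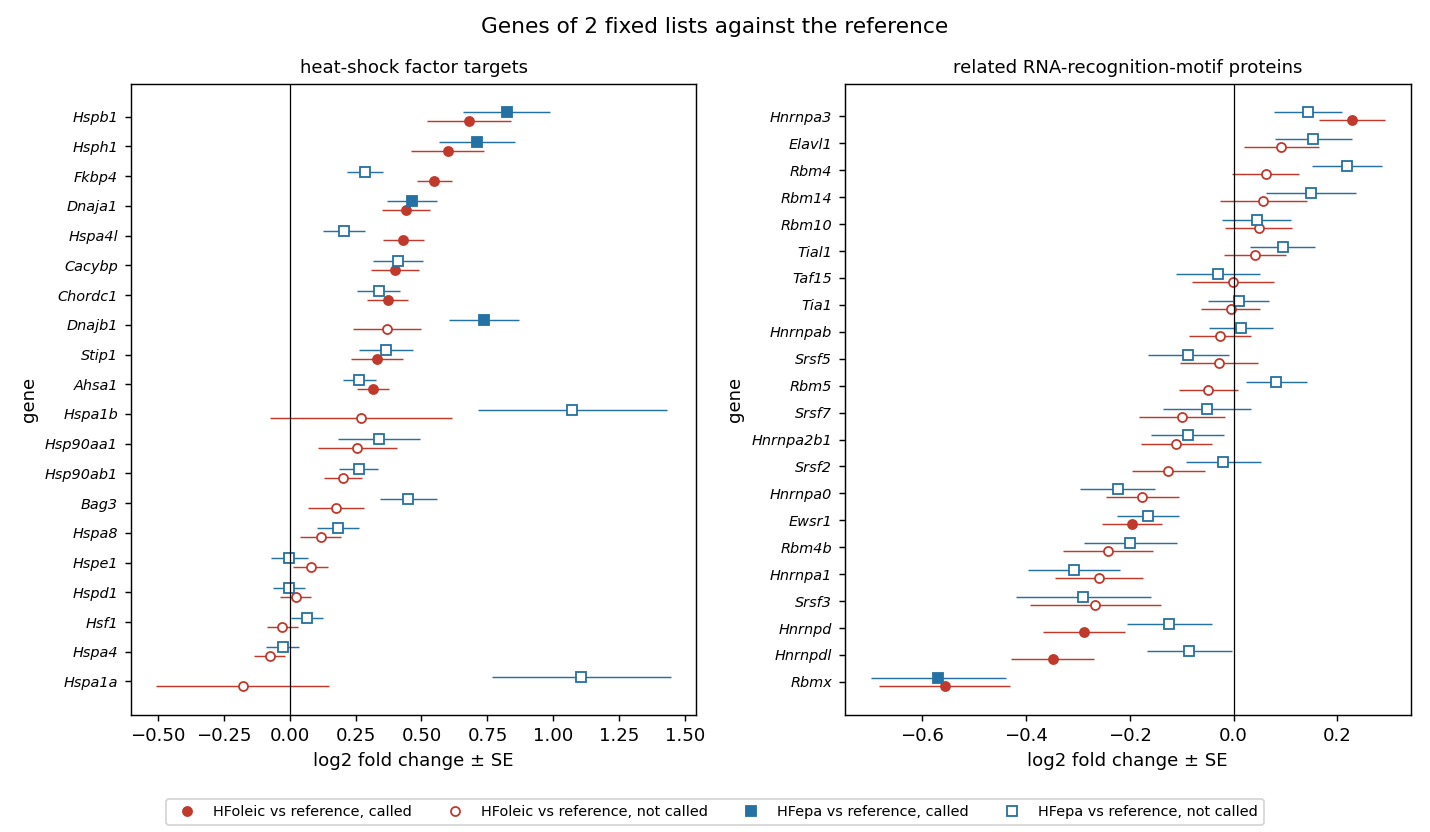
Log2 fold change ± SE (horizontal axis) of the tested genes (vertical axis) of the heat-shock factor targets (left) and the related RNA-recognition-motif proteins (right), for HFoleic (circles) and HFepa (squares) against the reference; filled symbols have an adjusted p under 0.05. Filled heat-shock symbols all lie to the right of 0, 9 in HFoleic and 4 in HFepa, and of the 5 filled circles on the right panel 4 lie below 0.

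Of the 18 clock genes 15 were tested, and in HFoleic 2 rose and none fell, beside 4.05% of all probes called higher and 3.19% lower: Nr1d2 (0.58, adjusted p = 0.01), the nuclear receptor Rev-erb beta, and Bhlhe40 (0.75, adjusted p = 0.0265), a repressor. Per2 differed by 0.88 (adjusted p = 0.0531) and Arntl, which encodes Bmal1, by -0.70 (adjusted p = 0.0663). The median change of the list was 0.25 in HFoleic, and the count was 1 without a filter on dim probes. In HFepa none was called (4 at an unadjusted p under 0.05), and the largest differences were those of Dbp (0.76, adjusted p = 0.669) and Per2 (0.62, adjusted p = 0.343). Between the high-fat groups none was called (2 at an unadjusted p under 0.05), with Dbp at -0.83 (adjusted p = 0.718) and Per1 at 0.71 (adjusted p = 0.574). The hour of death of each mouse was not analysed here, and its part in the Rbm3 and Cirbp results was not tested.

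The relations of the members with 5 of these genes over the 24 mice were weaker than that between the members. Their permutations, too, exchanged mice across the groups, so group differences enter the p-values. No test was made after subtraction of group means. Rbm3 correlated with Per2 at r = -0.631 (rho = -0.609, adjusted permutation p = 0.00253 for r), with Hsph1 at -0.629 (rho = -0.552, adjusted p = 0.00253), with Arntl at 0.606 (rho = 0.633, adjusted p = 0.00253) and with Dbp at -0.579 (rho = -0.550, adjusted p = 0.00508). With Hspa1b it was -0.192 (rho = -0.161, adjusted p = 0.372). After subtraction of group means these values were -0.375 for Per2, -0.239 for Hsph1, 0.350 for Arntl, -0.404 for Dbp and -0.072 for Hspa1b. The relations with Hsph1 did not keep their sign within every group. For Rbm3 r was -0.658 in the reference, -0.383 in HFoleic and 0.643 in HFepa, and for Cirbp it was -0.589, -0.449 and 0.259. That of Rbm3 with Hspa1b was 0.345 within HFepa, and that of Cirbp with Arntl was -0.104 within HFoleic. Cirbp correlated with Hsph1 at -0.693 (rho = -0.563, adjusted p = 0.000605), with Per2 at -0.614 (rho = -0.587, adjusted p = 0.00253), with Dbp at -0.488 (rho = -0.503, adjusted p = 0.0224), with Arntl at 0.458 (rho = 0.565, adjusted p = 0.0289) and with Hspa1b at -0.269 (rho = -0.177, adjusted p = 0.228). After subtraction of group means these were -0.444, -0.359, -0.243, 0.084 and -0.191. Without the 2 mice farthest from the median of the member, the 10 correlations kept their sign and ran from -0.637 to -0.120 for the negative ones and from 0.424 to 0.570 for the 2 with Arntl.

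The promoter of Cirbp is shown because the 2 genes moved together and an element known for the response of Cirbp to mild cold has been described in it. The window is the 250 bases before the upstream of the 2 RefSeq starts, chr10:80167589-80167838 of GRCm38.p6, plus strand, with capitals at the letters TCCCCGCC of that element.
Cirbp promoter: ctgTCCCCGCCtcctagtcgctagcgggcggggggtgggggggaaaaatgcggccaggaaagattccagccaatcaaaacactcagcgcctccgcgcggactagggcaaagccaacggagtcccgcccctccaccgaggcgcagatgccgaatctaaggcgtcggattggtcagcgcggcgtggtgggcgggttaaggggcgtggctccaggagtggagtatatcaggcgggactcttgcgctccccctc
The 8 letters stand once, at bases 4 to 11 of the window, and were found on either strand in 4.64% of 32851 promoter windows of the same length. The GC box GGGCGG, to which Sp1 binds, stands 3 times on either strand without overlap with the element, and 32.7% of the windows hold it. Neither GAANNTTC, the core of a heat-shock element, nor the E-box CACGTG of the clock proteins is in these letters, and 6.69% and 6.02% of the windows hold them. The table used holds no entry for Rbm3.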

How the data were processed

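The scanner output that the authors deposited for every array came from Agilent Feature Extraction 10.10.1.1. In it median, mean and background signals are intensities without normalization and the processed signal is an intensity corrected for background within the array. Spots carry marks of 0 or 1, per the file headers, for outliers and for signal well above background. The authors also deposited a table of filtered, quantile-normalized log2 median signals, used as an alternative. Correlation of its columns with the scanner values was at least 0.9997.

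Log2 median signals were averaged per probe without outlier spots. A probe was kept if 75% or more of the arrays of any group had it well above background (30003 probes), and arrays were quantile normalized. A group-means model of all 24 arrays was fitted with limma 3.58.1 (R 4.3.3), two-sided, with Benjamini-Hochberg adjustment over the kept probes. The fit was tested on simulated data. Permutations and correlations used scipy 1.17.1 and numpy 2.4.6 in Python 3.11.15. Alternatives were normexp (offset 50), processed signal scaled to the 75th percentile, median centring, the deposited table, 2 filters, and slide, slide row and replicate number as blocks. The methods' t-test, run with unequal variances, and leaving out each array were further alternatives.

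Groups came from the labels. P-values of the group comparisons set each difference against the spread between mice. With 1 array per mouse, variation between arrays is part of that spread, and the number of arrays limits precision. The members, gene lists (regulators, RNAs acted on, cold-shock domain, related RNA-recognition-motif, heat-shock factor targets, clock, and markers of 9 cell types) were chosen with earlier results of these data known. Named are all member probes and, per list and comparison, at most the 6 called genes with the smallest p or, with none called, the 2 largest changes, plus the 5 highest and 3 lowest correlations. Other genes named were used in the 11 relations or chosen after their values were seen (Tlr4). Of the genes so named, 2 are not reported here, and 1 of them was left out of its list, its counts and its plot.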

Additional observations from a re-analysis of the deposited data

How the results depend on the processing

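The direction of each of the 8 comparisons of the brightest Rbm3 and Cirbp probes was the same under every alternative run. The HFoleic changes were called in all 10 alternatives, at -0.80 to -0.72 for Rbm3 (adjusted p 0.000145 to 0.00237) and -0.88 to -0.80 for Cirbp (0.00144 to 0.0158). For HFepa against reference, Rbm3 probe 1 passed with normexp (-0.444, adjusted p = 0.0461) and with probes well above background on all arrays (-0.438, 0.0464). The cause was not tested. Over the fits that left out 1 array, Rbm3 ran from -0.490 to -0.366 and Cirbp from -0.634 to -0.447 in that comparison. The difference of Cirbp probe 2 between HFepa and HFoleic, near 0, changed sign in 4 such fits and ran from -0.0508 to 0.0144, with the values 0.00592, 0.0144, 0.0055 and 0.0129 in those 4. The Rbm3 and Cirbp correlation was 0.878 to 0.904. Probes called in HFepa against reference were 118, but 60 with the processed signal, 0 without a filter (4845 at an unadjusted p under 0.05), 0 with the methods' t-test (3482) and 0 to 496 when 1 array was left out. HFepa against HFoleic had 2 called with the all-array filter, and the averaged high-fat groups had 1071 without a filter, against 1830. Related RNA-recognition-motif genes called in HFoleic numbered 2 without a filter, 3 with median centring and 3 with the replicate block in place of 5, and clock genes numbered 1 without a filter and 4 with the slide as a block in place of 2. Single calls lost in HFoleic without a filter were those of Ewsr1, Hnrnpa3, Hnrnpd, Stip1 and Bhlhe40. Mice with the same replicate number were not more alike: they deviated with a mean correlation of -0.0035 over 22 pairs, against 0.0019 over other pairs. Of 24 arrays, 3 correlated best with their own number. These values cannot tell whether mice were paired in the design. The paper states that high-fat mice of both lineages were matched for body weight, and whether the numbers follow that matching was not tested. With the replicate number as a block, Rbm3 changed by -0.80 (adjusted p = 0.00109) and Cirbp by -0.88 (0.00212) in HFoleic. In HFepa they differed by -0.48 (0.0594) and -0.63 (0.0641), and probes called in HFoleic were 1747 in place of 2170. The dim probes, Cirbp 2 and 3 and Rbm3 4, lie closest to background and are measured least well.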
